A study of Homo sapiens with 8 samples.

Results

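The genes that license, unwind and copy DNA at replication origins and forks were followed as a module of 50 genes. They were chosen by their symbols for their place in a known replication complex and found among the 28265 genes of the count tables. This list and the other gene lists below were chosen with earlier results of these data known. Expression was read as "factory" RNA-Seq, which sequences RNA recovered from isolated transcription factories to enrich for nascent transcripts, in IMR90, a line of human lung fibroblasts derived from 1 isolate. All libraries came from low passage wild type cells. There were 4 conditions with 2 libraries each (n = 2 in every mean ± SD): cells without ICM, called control here and "young" in the labels, which do not say whether a vehicle was added, cells treated for 3 days with ICM, cells treated for 6 days with ICM, and cells labelled MetaICM. ICM is inflachromene, a small molecule that binds the chromatin proteins HMGB1 and HMGB2. The sources used here do not say how the MetaICM treatment differed from ICM or how long it lasted. The labels describe poly(A) selection of whole-cell RNA for these libraries, so nascent and mature transcripts cannot be told apart in the counts, and the comparisons below are of RNA levels.

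In the cell cycle, the origin recognition complex marks origins, and CDC6 and CDT1 load the MCM2-7 helicase onto them before S phase. The kinase CDC7 with DBF4, and the firing factors TOPBP1, TICRR and RECQL4, then let CDC45 and GINS join the helicase, and MCM10 activates it to unwind DNA. DNA polymerase alpha with primase starts each strand, and polymerases delta and epsilon extend it with the clamp PCNA. FEN1 and LIG1 join the Okazaki fragments, RPA coats single-stranded DNA, and TIMELESS, TIPIN and CLSPN hold the fork together. Many of these genes are transcribed as cells enter S phase, and E2F transcription factors are the best known regulators of that timing.

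The libraries held 12095123 to 23166405 counted read pairs (median 18642270), and the member counts ran from 10 to 3661 pairs, so that all 50 members were tested in all 6 comparisons. Levels are given as CPM, the counted pairs of a gene scaled to the size of its library, with TMM factors over the 8 libraries. A gene was taken as changed when edgeR's quasi-likelihood test gave an adjusted p under 0.05 over all genes and an absolute log2FC over 0.6; log2FC is followed by its standard error. The labels do not say whether the 2 libraries of a condition came from separate cultures, so the p-values measure the spread between these libraries, which may be technical. The fibroblast markers COL1A1, COL1A2, COL3A1, VIM, FN1, THY1, PDGFRB, DCN and LUM were present in every library, with summed levels of 53989 to 60566 CPM in control, 26143 to 27665 after 3 days, 21012 to 21142 after 6 days and 34847 to 37671 in MetaICM. Epithelial markers (EPCAM, CDH1, KRT5, SFTPC) summed to at most 1.29 CPM and endothelial markers (PECAM1, CDH5, VWF) to at most 4.94 CPM, most of it VWF. Of the immune markers, CD3E had no count in any library, whereas the summed level, mostly CD68, was 4.34 to 6.01 CPM in control, 16.6 to 21.3 after 3 days, 17.95 to 20.5 after 6 days and 13.05 to 13.3 in MetaICM. FN1 had the highest level of the fibroblast markers in every condition. After 6 days, the fibroblast markers ranged from 22.4% (COL1A1) to 95.5% (COL3A1) of their control means. In MetaICM they ranged from 46.6% (FN1) to 162.5% (VIM), so the lower sum there does not hold for every marker. The sums are RNA levels and do not count cells. The fibroblast sum was lower and the immune sum higher than in control in the ICM libraries, in which most replication genes were lower. Both shifts were smaller but present in MetaICM, in which 3 of 50 replication genes were lower than in control. The part of these shifts in the results was not tested.

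After 3 days of ICM, 41 of the 50 replication genes were lower than in control and 0 were higher, where 13.2% of all 15692 genes tested were lower and 8.85% were higher (11.3% and 11.4% with scaling by library totals). Their median log2FC was -1.39, against 0.0095 for all genes tested. After 6 days, 39 were lower, against 17.2% of 15950 genes, and 0 were higher, against 13.3%, with a median log2FC of -1.50 against -0.0013 for all genes. The 39 genes that were lower after 6 days were also lower after 3 days, and 2 others, RPA1 and TIPIN, passed only at 3 days. Both comparisons use the same control libraries. DESeq2 also called 0 members higher at either time, and the members above control at an unadjusted p under 0.05 in edgeR were 1 after 3 days, ORC2, and 2 after 6 days, ORC2 and ORC5. The summed level of the 50 genes was 2162 and 1899 CPM without ICM, 848 and 836 after 3 days, 821 and 843 after 6 days, and 1715 and 1807 in MetaICM. Thus, both ICM times lay far below control and MetaICM without overlap, at 41.5% and 41.0% of the control mean. In single genes, the level after 6 days ranged from 7.99% of control (MCM10) to 134% (ORC2), and 37 genes were below 50% of control. In bulk RNA, fewer cells in a replicating state and less RNA of these genes per cell cannot be told apart. CPM is relative to each library and does not measure the amount of RNA per cell. The paper reports less nascent nuclear RNA after ICM and, by flow cytometry, more cells held in late S phase. How these relate to the levels here was not tested.

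**Figure D1:**
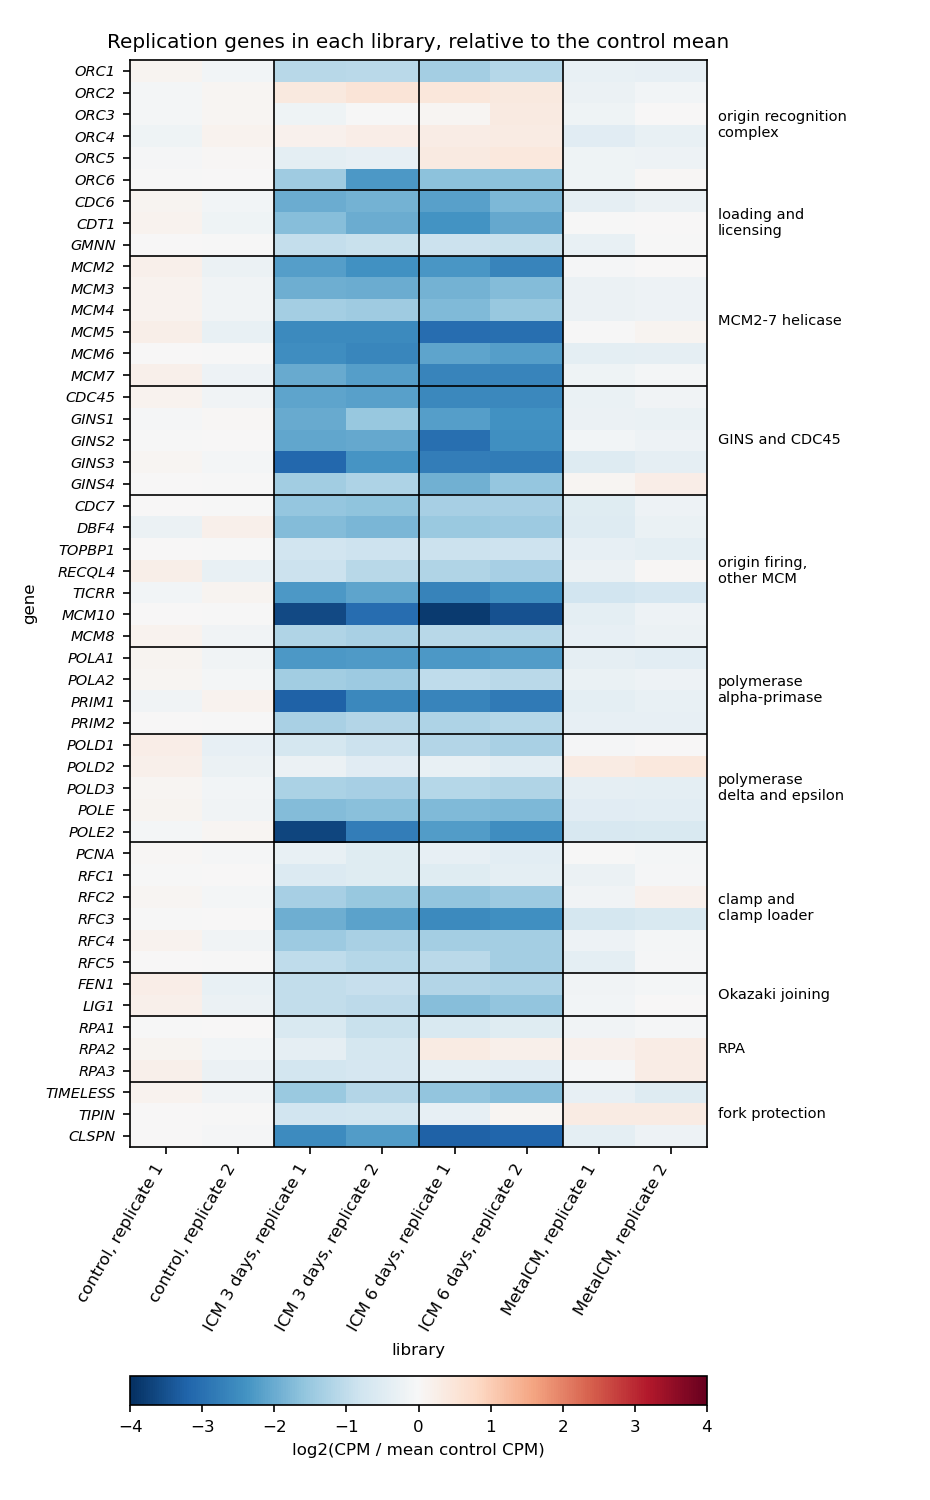
Colour shows log2 of each library's CPM over the control mean for the 50 replication genes (rows, grouped by complex) in the 8 libraries (columns). The 4 ICM libraries are blue across nearly all complexes, with MCM10 darkest, whereas ORC2 to ORC5, POLD2, PCNA, RFC1 and the RPA genes stay pale and the MetaICM libraries lie near control.

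**Figure D2:**
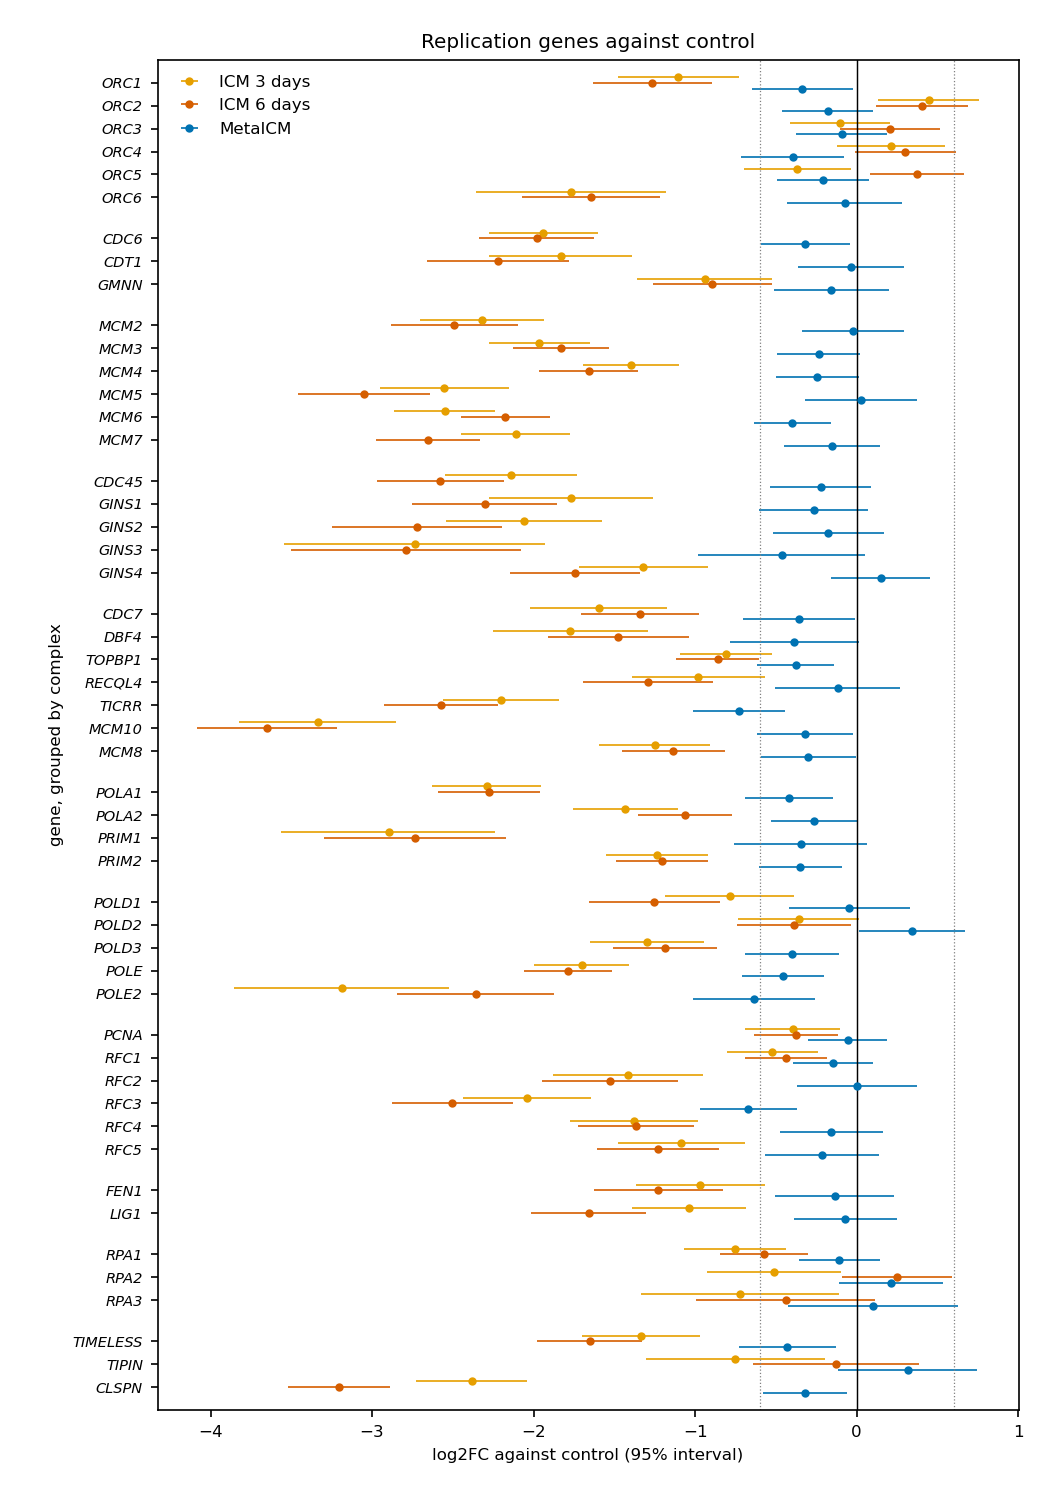
Points give the log2FC of each replication gene against control after 3 days of ICM, after 6 days and in MetaICM, with 95% intervals from edgeR, and dotted lines mark 0.6 in each direction. ICM values run from -3.65 to 0.45, whereas those of MetaICM lie between -0.73 and 0.35.

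The promoters of the members were searched for 8-base E2F words. RefSeq promoter sequences (GRCh38.p14, 250 bases before to 50 after the start) were matched by symbol for 43 of the 50 members, 10 of which had more than 1 start. MCM4, MCM5, GINS4, RECQL4, POLD3, RPA2 and RPA3 were not matched. The words TTTGGCGC, TTTCGCGC, TTTCCCGC or TTTGCCGC, on either strand, occurred in 23 of the 43 members (53.5%), compared with 1090 of all 27305 genes with a promoter in the RefSeq table (3.99%). Among genes tested at 6 days, 11740 had a matched promoter, and 735 of these held a word (6.26%). Among genes outside the module that were lower at 6 days, 1924 had a matched promoter, and 150 of these held a word (7.80%). All 3 loading genes and all 4 matched MCM2-7 genes held a word, and 1 of 6 ORC genes did. Among members lower at 6 days 20 of 34 held a word, and among those not lower 3 of 9 did. The median log2FC at 6 days was -1.98 for the 23 members with a word and -1.26 for the 20 without. The CHR words TTTGAA and TTCGAA, an element of later cell cycle genes, were in 2 of 43 members and in 16.3% of the tested genes with a matched promoter, and CCAAT boxes were in 26 of 43 members and in 42.8%. MCM10, with the largest decrease of the module, held no E2F word in this window. These are matches of letters and not measured binding sites. The members were chosen as replication genes, for which E2F factors are known regulators. Their share of E2F words thus describes the chosen list and is not a result of the ICM treatment.

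The 4 sequences below are from the members with the largest decrease at 6 days that hold a word: CLSPN (chr1:35769929-35770228, minus strand), GINS3 (chr16:58392221-58392520, plus strand), GINS2 (chr16:85688905-85689204, minus strand) and MCM7 (chr7:100101348-100101647, minus strand). Each is read 5′ to 3′ in the direction of the gene, with the E2F words in capitals. The word begins 5 bases before the start in CLSPN and GINS3 and 31 bases before it in GINS2, whereas MCM7 has words beginning 187 and 9 bases before it, at 1 of its 3 starts.
CLSPN: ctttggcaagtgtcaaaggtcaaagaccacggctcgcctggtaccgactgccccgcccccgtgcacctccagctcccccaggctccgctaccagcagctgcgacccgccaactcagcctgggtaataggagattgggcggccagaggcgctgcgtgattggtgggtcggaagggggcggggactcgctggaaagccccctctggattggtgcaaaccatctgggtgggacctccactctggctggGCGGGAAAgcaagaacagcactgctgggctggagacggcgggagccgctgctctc
GINS3: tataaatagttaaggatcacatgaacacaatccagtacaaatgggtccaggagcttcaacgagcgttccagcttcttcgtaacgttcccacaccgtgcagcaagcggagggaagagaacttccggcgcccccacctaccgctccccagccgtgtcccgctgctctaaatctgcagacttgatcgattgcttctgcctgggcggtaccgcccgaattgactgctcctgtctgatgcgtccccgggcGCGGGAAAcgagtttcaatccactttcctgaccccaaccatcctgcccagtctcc
GINS2: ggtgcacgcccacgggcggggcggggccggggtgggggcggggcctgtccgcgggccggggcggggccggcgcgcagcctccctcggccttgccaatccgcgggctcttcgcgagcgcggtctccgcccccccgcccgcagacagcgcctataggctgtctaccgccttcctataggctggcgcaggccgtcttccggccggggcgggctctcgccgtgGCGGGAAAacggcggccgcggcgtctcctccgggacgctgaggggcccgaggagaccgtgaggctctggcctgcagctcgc
MCM7: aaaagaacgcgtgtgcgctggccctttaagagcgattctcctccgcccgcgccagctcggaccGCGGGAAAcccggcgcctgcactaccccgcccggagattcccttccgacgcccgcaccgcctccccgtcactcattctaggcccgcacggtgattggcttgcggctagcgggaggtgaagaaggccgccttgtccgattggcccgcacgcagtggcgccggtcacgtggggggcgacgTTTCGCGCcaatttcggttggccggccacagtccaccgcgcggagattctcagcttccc

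For comparison, the next sequences are from the 2 matched members with the smallest absolute log2FC at 6 days, TIPIN (chr15:66356636-66356935, minus strand) and ORC3 (chr6:87589885-87590184, plus strand), neither of which passed the test then. TIPIN has words beginning 66 and 62 bases before this start that overlap on opposite strands, and no word at its other start. ORC3 has a word beginning 12 bases before its start. Words near the start thus occurred both in members called lower at 6 days and in members not called then. TIPIN was called lower at 3 days.
TIPIN: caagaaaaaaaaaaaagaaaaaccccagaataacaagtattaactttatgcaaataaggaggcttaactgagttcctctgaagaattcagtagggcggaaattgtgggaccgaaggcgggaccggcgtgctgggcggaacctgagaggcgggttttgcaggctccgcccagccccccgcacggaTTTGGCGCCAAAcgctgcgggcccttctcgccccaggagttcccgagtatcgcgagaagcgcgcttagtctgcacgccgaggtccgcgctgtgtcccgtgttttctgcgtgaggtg
ORC3: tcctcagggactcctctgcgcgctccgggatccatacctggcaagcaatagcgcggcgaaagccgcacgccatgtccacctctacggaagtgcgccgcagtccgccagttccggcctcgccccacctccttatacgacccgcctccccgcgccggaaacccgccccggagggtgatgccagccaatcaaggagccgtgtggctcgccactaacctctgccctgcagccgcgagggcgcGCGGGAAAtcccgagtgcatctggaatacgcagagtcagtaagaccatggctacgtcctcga

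The origin recognition complex was split. ORC1, its main ATPase subunit, and ORC6, its smallest subunit, were lower at both times, whereas ORC2, ORC3, ORC4 and ORC5, its core subunits, were not lower at either. ORC6 was at 11.2 and 11.6 CPM in control, 4.23 and 2.33 after 3 days, 3.66 and 3.67 after 6 days and 10.2 and 11.6 in MetaICM (log2FC -1.64 ± 0.19, adjusted p = 8.58e-05 at 6 days against control). ORC1 was at 22.7 and 19.3 CPM in control, 9.76 and 9.97 after 3 days, 8.19 and 9.51 after 6 days and 17.02 and 16.8 in MetaICM (log2FC -1.26 ± 0.16, adjusted p = 0.000183 at 6 days). All 4 ICM libraries were thus below every control library for both genes.

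ORC2 was at 31.3 and 34.98 CPM in control, 43.2 and 47.5 after 3 days, 45.5 and 43.1 after 6 days and 28.4 and 30.7 in MetaICM. Its ICM libraries all lay above control, with log2FC 0.45 ± 0.14, adjusted p = 0.0365 at 3 days and log2FC 0.41 ± 0.13, adjusted p = 0.0268 at 6 days, both short of the log2FC cutoff. ORC3 was at 47.4 and 53.6 CPM in control, 44.96 and 49.6 after 3 days and 53.1 and 64.3 after 6 days, with 44.5 and 51.2 in MetaICM, so that groups overlapped (95% interval of the log2FC at 6 days -0.10 to 0.51). For ORC4 the levels were 29.4 and 36.3 CPM in control, 37.05 and 39.4 after 3 days, 40.6 and 40.95 after 6 days and 23.8 and 26.5 in MetaICM (interval at 6 days -0.01 to 0.62). Here, 6.14% of the exon bases of ORC4 overlap ACVR2A on the other strand, where read pairs could not be assigned. ORC5 was at 23.99 and 25.9 CPM in control, 19.2 and 19.7 after 3 days and 31.9 and 33.1 after 6 days, with 22.1 and 21.6 in MetaICM. Its libraries were hence first below and then above control. The log2FC was -0.37 ± 0.15 (adjusted p = 0.0923) at 3 days and 0.37 ± 0.13 (adjusted p = 0.0427) at 6 days, both short of the log2FC cutoff. The summed level of ORC2 to ORC5 was 141 ± 13.2 CPM in control, 150 ± 8.36 after 3 days, 176 ± 7.24 after 6 days and 124 ± 7.89 in MetaICM (mean ± SD).

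The loading step showed lower levels of all 3 members at both times. CDT1, which delivers the helicase, was at 21.01 and 16.7 CPM in control, 5.81 and 4.79 after 3 days, 3.61 and 4.57 after 6 days and 18.5 and 18.9 in MetaICM (log2FC -2.22 ± 0.20, adjusted p = 1.24e-05 at 6 days). CDC6, the loader ATPase, fell to 25.6% of its control mean at 6 days (log2FC -1.98 ± 0.16, adjusted p = 6.07e-06). GMNN, the inhibitor of CDT1, changed least, with 13.4 and 13.03 CPM in control, 6.79 and 7.11 after 3 days, 7.27 and 7.12 after 6 days and 10.8 and 13.2 in MetaICM (log2FC -0.89 ± 0.17, adjusted p = 0.00178). The inhibitor thus fell by a smaller log2FC than its target, and the difference between them was not tested.

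All 6 MCM2-7 genes, the subunits of the replicative helicase, were lower at both times. MCM5 had the largest decrease, from 86.2 and 59.1 CPM in control to 12.5 and 12.4 after 3 days and 8.72 and 8.98 after 6 days, with 71.5 and 78.6 in MetaICM (log2FC -3.05 ± 0.18, adjusted p = 7.48e-07 at 6 days). The smallest was that of MCM4, from 128 and 105 CPM to 45.8 and 43.2 after 3 days and 33.9 and 40.4 after 6 days, with 99.2 and 100 in MetaICM (log2FC -1.66 ± 0.14, adjusted p = 7.41e-06). MCM2, MCM3, MCM6 and MCM7 lay between them at log2FC -2.49, -1.83, -2.17 and -2.65 at 6 days. No ICM library overlapped a control or MetaICM library for MCM4 or MCM5.

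The helicase subunits act as a hexamer with 1 copy of each, and their RNA levels were compared per kilobase of exon. In control they ran from 17.6 (MCM2) to 54.8 (MCM7) CPM per kilobase, a 3.11-fold range. After 6 days they ran from 2.56 (MCM5) to 8.899 (MCM4), a 3.48-fold range, so the range was about as wide while the order changed. The ORC genes, in contrast, spread from a 4.2-fold range in control, between ORC4 and ORC3, to a 10.4-fold range after 6 days, between ORC6 and ORC3, and a 5.2-fold range in MetaICM. These ranges are descriptions without a test.

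**Figure D3:**
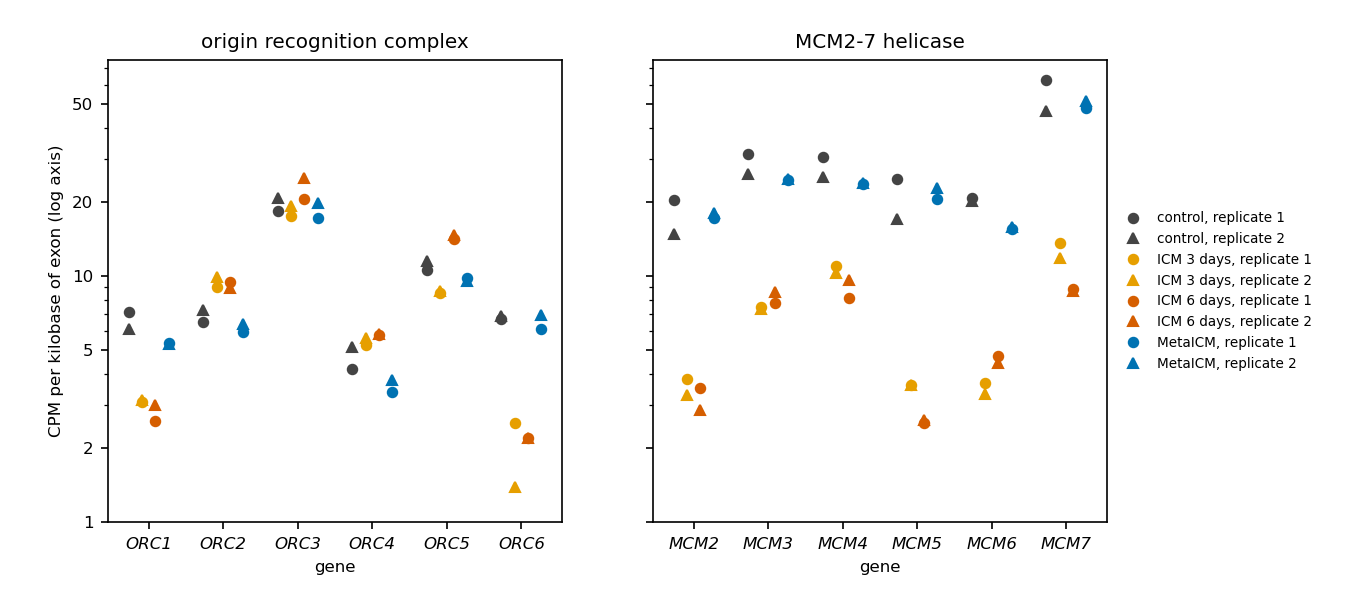
Points give CPM per kilobase of exon (log axis) in each library for the 6 ORC genes (left) and the 6 MCM2-7 genes (right), coloured by condition, with the replicate as the symbol. In the ICM libraries all MCM2-7 genes, ORC1 and ORC6 sit below control, and ORC2 to ORC5 stay near it.

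CDC45 and the 4 GINS genes, which complete the active helicase, were lower at both times. Their summed level was 71.5 ± 2.90 CPM in control, 20.3 ± 1.70 after 3 days, 14.6 ± 1.18 after 6 days and 66.1 ± 2.35 in MetaICM. GINS3 had the lowest level per kilobase of the module in all conditions, with 72 and 47 counted pairs in control, 10 and 12 after 3 days and 11 and 11 after 6 days, with 57 and 72 in MetaICM, so its estimate is less precise than most (log2FC -2.79 ± 0.32, adjusted p = 7.69e-05). GINS4 had the smallest decrease, from 18.1 and 17.9 CPM in control to 6.83 and 7.71 after 3 days and 4.74 and 6.11 after 6 days, with 18.9 and 21.6 in MetaICM (log2FC -1.74 ± 0.18, adjusted p = 3.82e-05). GINS1, GINS2 and CDC45 were at log2FC -2.30, -2.72 and -2.58 at 6 days.

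Of the firing factors and other MCM genes, 7 of 7 were lower at both times. MCM10, which activates the assembled helicase, was at 23.99 and 23.5 CPM in control, 1.95 and 2.86 after 3 days, 1.67 and 2.12 after 6 days and 17.96 and 20.5 in MetaICM (log2FC -3.65 ± 0.20, adjusted p = 3.38e-07 at 6 days, the largest decrease of the 50). TOPBP1, a scaffold also used in checkpoint signalling, had the smallest, from 71.2 and 69.8 CPM to 41.5 and 39.4 after 3 days and 38.7 and 39.7 after 6 days, with 55.6 and 54.1 in MetaICM (log2FC -0.86 ± 0.12, adjusted p = 0.000222). The kinase CDC7 and its activator DBF4 changed by similar amounts, with log2FC -1.34 and -1.48 at 6 days, and the firing factor TICRR by -2.57. RECQL4, a helicase of the RecQ family, was at -1.29. MCM8, which is not part of MCM2-7 and acts in recombination with MCM9, was at -1.14. Between the extremes of this group the log2FC at 6 days thus spanned -3.65 to -0.86.

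Polymerase alpha-primase was lower at both times in all 4 subunits. PRIM1, the catalytic primase subunit, was at 7.92 and 9.504 CPM in control, 0.9298 and 1.46 after 3 days, 1.4 and 1.22 after 6 days and 6.699 and 7.08 in MetaICM (log2FC -2.73 ± 0.25, adjusted p = 1.64e-05 at 6 days). POLA2, the accessory subunit, was at 41.2 and 37.03 CPM in control, 14.97 and 14.2 after 3 days, 19.2 and 18.5 after 6 days and 32.4 and 33.6 in MetaICM (log2FC -1.06 ± 0.13, adjusted p = 0.000125). The catalytic subunits PRIM1 and POLA1 (-2.28) had the larger log2FC in this complex, and PRIM2 (-1.20) and POLA2 the smaller, a difference that was not tested.

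Among the extending polymerases, 4 of 5 subunits were lower at both times. POLE2, an accessory subunit of polymerase epsilon, fell from 10.6 and 11.8 CPM in control to 0.883 and 1.66 after 3 days and 2.37 and 2.02 after 6 days, with 7.195 and 7.35 in MetaICM (log2FC -3.19 ± 0.30, adjusted p = 9.03e-06 at 3 days, and log2FC -2.36 ± 0.22, adjusted p = 1.64e-05 at 6 days). POLD2, an accessory subunit of polymerase delta, was at 28.6 and 21.6 CPM in control, 21.1 and 18.3 after 3 days, 20.2 and 18.5 after 6 days and 31.4 and 33.3 in MetaICM. Its ICM libraries were below both control libraries, with an interval of the log2FC at 6 days of -0.74 to -0.03 (adjusted p = 0.0735). POLE, POLD1 and POLD3, the catalytic subunit of epsilon and the catalytic and an accessory subunit of delta, were at log2FC -1.79, -1.25 and -1.19 at 6 days. The 3-day call of POLD1 (-0.78) was lost without control replicate 1 (-0.45).

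The clamp and its loader differed by subunit. PCNA, the sliding clamp, was at 63.6 and 60.05 CPM in control, 50.2 and 44.2 after 3 days, 49.5 and 46.6 after 6 days and 61.5 and 58.9 in MetaICM. All ICM libraries were below control, but by less than the log2FC cutoff (log2FC -0.38 ± 0.12, adjusted p = 0.0244 at 6 days, interval -0.63 to -0.12). Of the exon bases of PCNA, 26.7% overlap PCNA-AS1 on the other strand, so that read pairs on both genes were not counted. RFC1, the large loader subunit, was at 74.7 and 77.1 CPM in control, 51.7 and 54.6 after 3 days, 54.5 and 58.5 after 6 days and 65.01 and 73.6 in MetaICM, with all ICM libraries below control but within the cutoff (log2FC -0.44 ± 0.12, adjusted p = 0.0118, interval -0.69 to -0.18).

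The 4 small loader subunits RFC2, RFC3, RFC4 and RFC5 were all lower at both times. RFC3 had the largest decrease, from 22.4 and 22.8 CPM in control to 5.86 and 5.12 after 3 days and 3.88 and 4.14 after 6 days, with 13.8 and 14.8 in MetaICM (log2FC -2.50 ± 0.17, adjusted p = 1.59e-06). RFC2, RFC4 and RFC5 were at log2FC -1.53, -1.36 and -1.23 at 6 days. PCNA was the highest member per kilobase in both ICM conditions, with 34.4 CPM per kilobase at 6 days against 44.2 in control, whereas MCM7 was the highest in control and MetaICM. These levels divide by all exon bases, including the 26.7% of PCNA shared with PCNA-AS1, where pairs on both genes were not counted. The level of PCNA is therefore a low estimate, and its place below MCM7 in control and MetaICM is uncertain.

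The Okazaki fragment genes were both lower at both times. LIG1, the ligase, was at 52.9 and 39.4 CPM in control, 23.1 and 22.1 after 3 days, 14.1 and 15.4 after 6 days and 42.7 and 46.5 in MetaICM (log2FC -1.04 ± 0.16, adjusted p = 0.000489 at 3 days, and log2FC -1.66 ± 0.16, adjusted p = 2.23e-05 at 6 days). FEN1, the flap nuclease, was at 40.2 and 27.2 CPM in control, 17.1 and 17.7 after 3 days, 14.9 and 14.3 after 6 days and 30.5 and 31.8 in MetaICM (log2FC -1.23 ± 0.18, adjusted p = 0.000402). The control libraries of both genes stood further apart than those of any other condition, yet both were above all ICM libraries.

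RPA was the complex with the smallest changes among those that act at the fork, and none of its 3 genes passed the test at 6 days. RPA1, the large subunit, was at 50.2 and 50.8 CPM in control, 32.9 and 27.4 after 3 days, 32.8 and 35.7 after 6 days and 45.95 and 48.97 in MetaICM. It was lower at 3 days (log2FC -0.75 ± 0.14, adjusted p = 0.00216), a call lost without ICM 3 days replicate 2 (-0.63). At 6 days it was at log2FC -0.57 (interval -0.84 to -0.30, adjusted p = 0.00398), just short of the log2FC cutoff. RPA2, the subunit phosphorylated under replication stress, was at 15.8 and 13.6 CPM in control, 11.5 and 9.11 after 3 days, 18.5 and 16.8 after 6 days and 16.6 and 17.9 in MetaICM. It was thus below control at 3 days and above at 6 days, with intervals against control of -0.93 to -0.10 and -0.09 to 0.59. RPA3, the smallest subunit, was at 4.88 and 3.605 CPM in control, 2.56 and 2.66 after 3 days, 3.23 and 3.13 after 6 days and 4.12 and 5.16 in MetaICM (interval at 6 days -0.99 to 0.11). With counts thinned to the smallest library total, RPA1 at 6 days (-0.64) and RPA2 at 3 days were also called lower. With all 8 libraries in one fit, RPA3 was called lower at 3 days.

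Of the fork protection genes, CLSPN and TIMELESS were lower at both times. CLSPN, the adaptor that passes the ATR signal to CHEK1, was at 57.1 and 54.6 CPM in control, 9.86 and 11.8 after 3 days, 5.98 and 6.21 after 6 days and 42.7 and 48.01 in MetaICM (log2FC -2.38 ± 0.16, adjusted p = 3.62e-07 at 3 days, and log2FC -3.21 ± 0.14, adjusted p = 1.1e-07 at 6 days). TIMELESS was at log2FC -1.65 at 6 days. TIPIN, its binding partner, was at 5.18 and 4.998 CPM in control, 3.02 and 3.06 after 3 days, 4.04 and 5.36 after 6 days and 6.401 and 6.43 in MetaICM. TIPIN passed the test at 3 days (log2FC -0.75 ± 0.25, adjusted p = 0.0436), a call lost without any 1 of the 4 libraries and with DESeq2 or library totals (log2FC -0.79 to -0.68), and at 6 days its interval was -0.64 to 0.39.

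Between 3 and 6 days of ICM, 4 of the 50 genes differed: 2 were lower at 6 days, against 4.54% of 15845 genes tested, and 2 were higher, against 3.53%, both shares near the background. CLSPN (log2FC -0.83 ± 0.18, adjusted p = 0.00256) and LIG1 (log2FC -0.62 ± 0.13, adjusted p = 0.00154) were lower. ORC5 (log2FC 0.74 ± 0.11, adjusted p = 0.000138) and RPA2 (log2FC 0.76 ± 0.15, adjusted p = 0.00122) were higher. In all 4 genes the libraries of the 2 times did not overlap, as the values above show. LIG1 lost its call without ICM 6 days replicate 1 (-0.55), which left CLSPN as the 1 gene called lower. POLE2 had the highest log2FC, 0.83 (interval 0.09 to 1.57), but did not pass (adjusted p = 0.11), and GINS2 (-0.67, interval -1.27 to -0.06) did not pass either. The median over the 50 genes was -0.042, against -0.0083 for all genes tested.

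**Figure D4:**
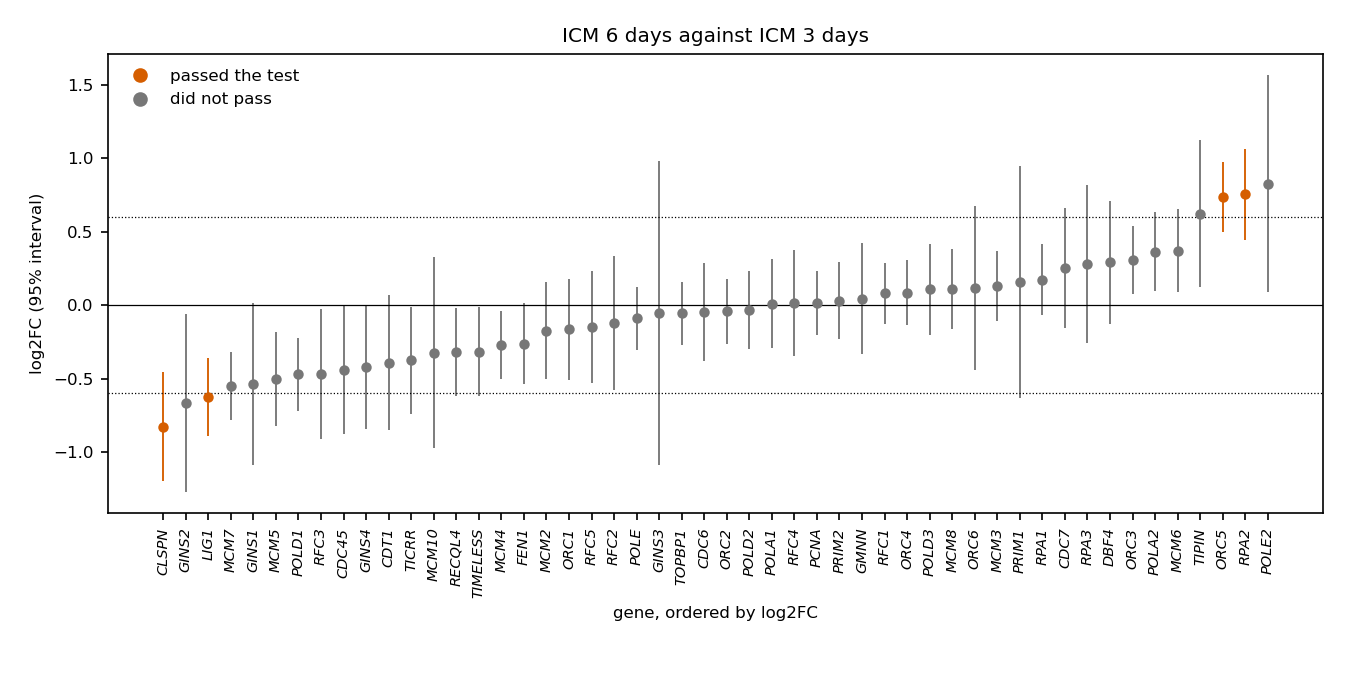
Points give the log2FC of each replication gene at 6 days against 3 days of ICM with its 95% interval, ordered by value. CLSPN and LIG1 at the low end and ORC5 and RPA2 at the high end passed the test, and 46 genes did not.

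In MetaICM, 3 of the 50 genes were lower than in control, against 8.99% of 15904 genes tested, and 0 were higher, against 7.41%. DESeq2 called 2 lower and 0 higher, and in edgeR 1 gene, POLD2, was above control at an unadjusted p under 0.05 (log2FC 0.35 ± 0.15, adjusted p = 0.107). The 3 lower genes were TICRR (log2FC -0.73 ± 0.13, adjusted p = 0.00359), RFC3 (log2FC -0.67 ± 0.14, adjusted p = 0.00641) and POLE2 (log2FC -0.63 ± 0.17, adjusted p = 0.0213). TICRR was at 41.9 and 48.3 CPM in control, 9.25 and 10.5 after 3 days, 7.001 and 8.23 after 6 days and 26.6 and 28.5 in MetaICM, hence between control and ICM. The count was 0 without MetaICM replicate 1 and 1 without MetaICM replicate 2, whereas 10 genes were lower with adjusted p alone. Still, 43 of 50 genes had a negative log2FC, with a median of -0.22 against -0.0011 for all genes.

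Against 6 days of ICM, 39 members were higher in MetaICM, where 15.7% of 16036 genes tested were, and 1, ORC4 (log2FC -0.70 ± 0.09, adjusted p = 9.19e-07), was lower, against 12.0%. TOPBP1, lower at 6 days than in control, was not called in this comparison, as its log2FC was under the cutoff of 0.6 (log2FC 0.48 ± 0.08, adjusted p = 2.89e-05). As both comparisons use the 6-day libraries, genes lower at 6 days and genes higher in MetaICM than at 6 days are not independent lists. MCM10 (3.33), MCM5 (3.08) and CLSPN (2.89) had the largest log2FC. The lower count was 2 without ICM 6 days replicate 1, without its replicate 2 or without MetaICM replicate 2, through ORC5 or ORC2, each at a log2FC of -0.58 against 6 days with all libraries. Against 3 days of ICM, 43 members were higher, against 13.1% of 16209 genes, and 2, ORC2 (log2FC -0.62 ± 0.10, adjusted p = 0.000217) and ORC4 (log2FC -0.60 ± 0.10, adjusted p = 0.000318), were lower, against 10.3%. Both lower calls were lost without ICM 3 days replicate 2 and without MetaICM replicate 1. RPA1, RPA2, RPA3 and TIPIN were higher in MetaICM than at 3 days, with log2FC 0.65, 0.73, 0.83 and 1.07. RPA1 lost this call with library totals, without ICM 3 days replicate 2 and without MetaICM replicate 2 (0.54 to 0.60). RPA2 lost it without ICM 3 days replicate 2 (0.59), and RPA3 with DESeq2 and without MetaICM replicate 2 (0.66 to 0.82). These comparisons share the MetaICM libraries with each other and with the one against control, and the ICM libraries with those of ICM against control.

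Other factors of replication, outside the 50, were read from a list of 31 genes of origin control, the fork and chromatin assembly, of which 30 were tested (CHTF8 had no count). After 6 days 17 were lower, where 17.2% of all genes tested were, 1 was higher, against 13.3%, and 12 did not pass, with a median log2FC of -0.78. The largest decreases were those of DTL, which directs CDT1 to degradation (log2FC -3.08 ± 0.17, adjusted p = 4.5e-07), CHTF18, of the alternative clamp loader (log2FC -2.78 ± 0.29, adjusted p = 3.77e-05), PCLAF, a PCNA-binding protein (log2FC -2.56 ± 0.32, adjusted p = 0.000128), and CHAF1B, of the histone chaperone CAF-1 (log2FC -2.26 ± 0.19, adjusted p = 9.72e-06). POLD4, the small subunit of polymerase delta, was higher, with 11.01 and 9.34 CPM in control, 21.2 and 20.5 after 3 days, 17.6 and 20.2 after 6 days and 19.1 and 17.9 in MetaICM (log2FC 0.87 ± 0.16, adjusted p = 0.00184 at 6 days). It was therefore above control in all other conditions, and was also called higher at 3 days and in MetaICM (log2FC 1.02 ± 0.17, adjusted p = 0.000842, and log2FC 0.84 ± 0.15, adjusted p = 0.00409). Among genes that did not pass, POLE3 and POLE4, histone-fold subunits of polymerase epsilon, were at log2FC -0.06 and 0.09, LRWD1, which binds ORC, at -0.06, and KAT7, a histone acetyltransferase used in licensing, at -0.11. In MetaICM 2 of the 30 were lower than in control, where 8.99% of all genes tested were, ATAD5 (-0.79), which unloads PCNA, and RIF1 (-0.68), a regulator of origin timing.

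Of the 50 genes, 17 had a neighbour on the opposite strand whose 5′ end lay within 1000 bases and that was transcribed away from them, 18 neighbours in all, of which 17 were tested. After 6 days, 13 of the 17 members paired with a tested neighbour were lower, with a median log2FC of -1.29. Their neighbours had a median of 0.15, and 3 were lower, 3 were higher and 11 did not pass. Both counts were near the background of 17.2% lower and 13.3% higher over all genes tested, so the neighbours' calls are given for single genes and not as a result about neighbours. CDC45 (-2.58) and UFD1, which begins 273 bases away and serves protein degradation, moved in opposite directions, with UFD1 higher (log2FC 0.92 ± 0.13, adjusted p = 0.000262). FEN1 (-1.23) lay 312 bases from TMEM258, which was higher (0.94 ± 0.23, adjusted p = 0.0089), and TOPBP1 (-0.86) lay 57 bases from TF, the gene of transferrin, which had 6 to 53 counted pairs per library and was higher (2.50 ± 0.39, adjusted p = 0.000626).

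The 3 neighbours that were lower were PRKDC, the DNA-dependent protein kinase beside MCM4 (-0.83 ± 0.12, adjusted p = 0.000291), SLC25A40 beside DBF4 (-0.98 ± 0.18, adjusted p = 0.00146), and PXMP2 beside POLE (-2.16 ± 0.44, adjusted p = 0.00305, 6 to 58 counted pairs per library). The 11 neighbours that did not pass were PRPF38A beside ORC1 (0.31), RARS2 beside ORC3 (0.20), MBD5 beside ORC4 (0.15), VPS35 beside ORC6 (0.03), TPRA1 beside MCM2 (0.20), AP4M1 beside MCM7 (-0.49), LRRC14 beside RECQL4 (-0.24), TRMT6 beside MCM8 (0.03), CDS2 beside PCNA (0.16), ZSWIM9 beside LIG1 (0.57) and SMYD4 beside RPA1 (-0.16). MIR611, a second neighbour of FEN1, had at most 3 counted pairs and was not tested. ORC3 and RARS2, 35 bases apart, had nearly the same log2FC. The difference within pairs was not tested. The counts do not use strand, but no exon bases were shared within a pair.

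**Figure D5:**
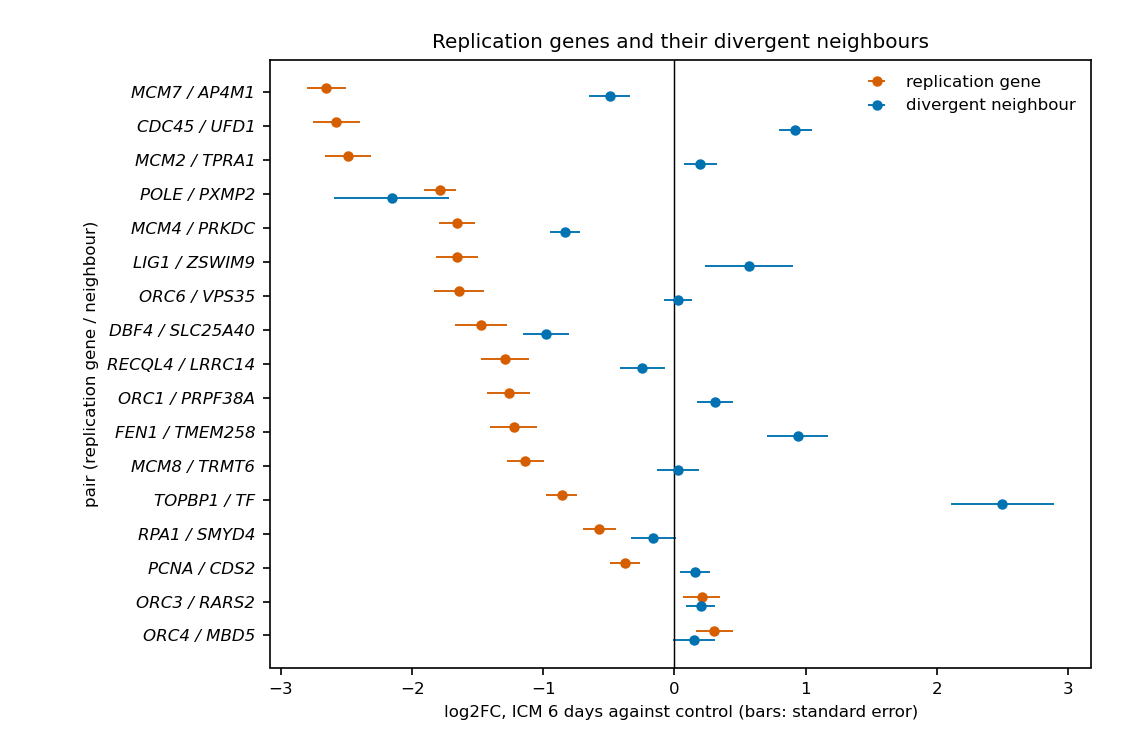
Points give the log2FC at 6 days of ICM against control for 17 replication genes and their divergent neighbours, with bars for the standard error. The replication genes run from -2.65 (MCM7) to 0.30 (ORC4), and most neighbours lie near 0, apart from PXMP2, SLC25A40 and PRKDC below and UFD1, TMEM258 and TF above.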

How the data were processed

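The authors mapped the read pairs to GRCh37 with STAR (version 2.6.0c in the submitters' processing notes) and deposited raw, exonic counts per RefSeq gene and library from featureCounts (version 1.6.3). Per the file headers, strand was ignored and pairs on several places or genes were dropped. Intronic reads, which the study used for nascent RNA, were not analysed here. Here, each pair of conditions (4 libraries) was fitted with edgeR (version 4.0.16, R 4.3.3) after TMM scaling, with filterByExpr at a count minimum of 10 and Benjamini-Hochberg adjustment over all genes tested. The fits were tested on simulated counts with the same spread setting for every gene, which is simpler than the real libraries. DESeq2 (version 1.42.0), other scalings and filters, all 8 libraries in one fit, thinning to the smallest total, and leaving out each library were alternatives. The 50 members and all gene lists were chosen with earlier results of these data known. In each complex, values in every library are given for the members with the largest and smallest absolute log2FC at 6 days, those not called at 6 days and those called between 6 and 3 days, with ORC1 and TICRR added after their values were seen. Of the other factors, up to 4 called in either direction, by log2FC, and 4 not called are named, with ATAD5 and RIF1 added later. Divergent neighbours and exon overlaps come from the exon coordinates in the count tables, and overlaps of 3 or 4 bases (GINS2, RFC4), or of up to 3.47% of exon bases (GINS4, TICRR, RPA3), are not marked at each value.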

Additional observations from a re-analysis of the deposited data

Results flagged for a closer look

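In 4 replication genes the effect of ICM differed between the 2 treatment times by a direct test of 6 days against 3 days (edgeR, adjusted over all 15845 genes tested). Their number was near the background, as 2 of 50 were lower at 6 days, against 4.54% of all genes tested, and 2 were higher, against 3.53%. ORC5 was higher at 6 days by a log2FC of 0.74 (adjusted p = 0.000138), with 19.2 and 19.7 CPM at 3 days and 31.9 and 33.1 at 6 days. RPA2 was higher by 0.76 (adjusted p = 0.00122), with 11.5 and 9.11 CPM at 3 days and 18.5 and 16.8 at 6 days, so that the 3-day libraries were below both control libraries and the 6-day libraries above them. CLSPN differed by -0.83 (adjusted p = 0.00256), with 9.86 and 11.8 CPM and then 5.98 and 6.21. LIG1 differed by -0.62 (adjusted p = 0.00154), with 23.1 and 22.1 CPM and then 14.1 and 15.4, and lost its call without ICM 6 days replicate 1 (-0.55). With 2 libraries per condition, no search for single libraries that stand apart within a condition was possible.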

How the results depend on the processing

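The counts of lower members were 40 to 43 at 3 days and 39 to 42 at 6 days in all alternatives that kept every library, and 39 to 42 and 39 to 40 when 1 library was left out. With adjusted p alone and no log2FC cutoff, members higher than control became 1 at 3 days and 2 at 6 days, those lower in MetaICM than in control 10, those lower at 6 days than at 3 days 5, and those lower in MetaICM than at 6 days 4. Members lower in MetaICM than at 6 days were 3 with upper-quartile factors and 2 with library totals, and members lower in MetaICM than at 3 days were 1 with all genes with a count. When 1 library was left out, members lower in MetaICM than in control ranged from 0 to 3, those lower at 6 days than at 3 days from 1 to 3, those lower in MetaICM than at 6 days from 1 to 2, and those lower in MetaICM than at 3 days from 0 to 2. No call of a member changed sign. Of 300 member values, 276 kept their call in all alternatives to the fit, and 60 changes of sign concerned values called in neither fit. Replicate numbers are shared between conditions, but same-numbered libraries did not deviate together throughout (r = -0.182 to 0.305 over 14465 genes), so the numbers were not taken as pairs. With the number as a replicate block, 42 members were lower at 3 days, 39 at 6 days, 3 in MetaICM against control, 2 at 6 days than at 3 days, and 3 were higher at 6 days than at 3 days. Crossing the numbers between MetaICM and ICM 3 days, chosen after seeing the data, left 43 members higher and 2 lower. The cause of these changes was not tested. The 2 libraries per condition limit the precision, most of all for GINS3, PRIM1 and POLE2 with their low counts under ICM.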
